A study of Mus musculus with 118 samples.

Results

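The dystrophin glycoprotein complex is described here by 7 of the 23998 gene symbols in the deposited tables, followed through single somatostatin (SOM+) interneurons of the mouse cortex. They were *Dmd* (dystrophin), *Utrn* (utrophin), *Dag1* (dystroglycan), *Dtna* and *Dtnb* (the alpha and beta dystrobrevins), *Sntb1* (beta-1 syntrophin) and *Sgce* (epsilon sarcoglycan). *Dmd* was selected on its own measured values, a lower level in layer 5 (L5) than in layer 4 (L4), and the others were taken as its partners, so the layer difference of *Dmd* is a description. The L4 cells of the second recording series were not used in that layer contrast. The area comparisons set other groups against each other, but they include the cells of that contrast. Earlier results of these data were also known when the members were chosen.

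The cells came from adult SOM-Cre/Ai9 mice, in which Cre under control of the somatostatin gene switches on a red reporter, so the label marks cells that make somatostatin or once did. Each cell of primary visual (V1) or somatosensory (S1) cortex was recorded with a patch pipette, its contents were drawn out, and the RNA was sequenced as 1 library (Patch-seq). The sample titles begin with 1 of 9 dates, which are called recording days here although neither the labels nor the study's methods name them so. Over these days, V1 L4 gave 42 usable cells of 44, and S1 L4 gave 34 of 39. In L5, 17 of 19 V1 cells and all 16 S1 cells were used. Days 1 to 6 (first series) held all L5 cells and 37 L4 cells, and days 7 to 9 (second series) held 39 L4 cells. Cells were left out for fewer than 1500 detected genes (4 cells), for *Slc17a7* reads that outnumbered those of *Gad1* and *Gad2* together (1 cell), or for no *Sst* read (4 cells). This rule was rebuilt here and did not keep exactly the number of S1 L4 cells that the study kept. Among the kept cells, the fewest genes were 1978 and the fewest *Sst* reads 22. The 7 markers of SOM+ interneurons summed to 903 to 15968 CPM in a cell, where CPM is the usual depth-scaled read count, a fixed multiple of a gene's share of all counts in its cell. Kept cells had 97904 to 3295232 counts (median 1111833). No label ties a cell to a mouse. Each combination of area and layer therefore counted as a single sample, without a test. The spread given for a difference is the SD over recording days with at least 2 cells on each side. The study used fewer mice than there are dates, and how the dates relate to mice is not given, so the days may not be independent.

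Dystrophin is a long rod-shaped protein under the cell membrane that links the actin cytoskeleton to dystroglycan, which in turn binds laminins, agrin and neurexins outside the cell. Dystrobrevins and syntrophins bind to dystrophin on the inner side and carry signalling proteins and channels, and sarcoglycans sit beside dystroglycan in the membrane. In the brain, dystrophin and dystroglycan are best known from inhibitory synapses on pyramidal and Purkinje cells and from the end feet of astrocytes on blood vessels, and loss of *Dmd* causes Duchenne muscular dystrophy. Utrophin is the autosomal paralogue of dystrophin and can take its place in the complex.

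*Dmd* spans 2257 kb of chromosome X (GRCm38, chrX:82948870-85206141, plus strand). Its longest coding transcript in GENCODE M21 has 79 exons and 14910 bases, and 2 shorter coding transcripts of 18 and 17 exons begin far downstream, at base 85048413. The gene-level counts add up reads of all forms. The promoters given for an upstream and a downstream start in the RefSeq set used here are shown because a count of *Dmd* can come from either. They are the only *Dmd* windows in that set and need not be all starts of the gene. Each runs 5' to 3' on the plus strand, from 250 bases before the start base to the end of the 300-base window, in lower case with motif matches in capitals, and positions are counted from the start base as 0.
Dmd upstream promoter, chrX:82948620-82948919: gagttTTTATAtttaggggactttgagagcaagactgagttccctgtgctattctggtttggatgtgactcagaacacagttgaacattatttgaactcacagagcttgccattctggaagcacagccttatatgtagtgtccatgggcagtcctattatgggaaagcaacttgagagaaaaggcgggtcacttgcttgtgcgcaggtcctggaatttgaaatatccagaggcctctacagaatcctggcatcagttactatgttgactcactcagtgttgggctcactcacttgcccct
Dmd downstream promoter, chrX:85048045-85048344: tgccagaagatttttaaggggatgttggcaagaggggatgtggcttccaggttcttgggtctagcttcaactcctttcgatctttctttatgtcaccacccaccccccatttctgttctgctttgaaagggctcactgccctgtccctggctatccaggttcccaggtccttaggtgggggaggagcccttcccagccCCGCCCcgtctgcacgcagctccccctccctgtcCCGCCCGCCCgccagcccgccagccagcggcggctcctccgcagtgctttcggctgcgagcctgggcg
The capitals mark matches to 4 motifs. The GC box was searched as GGGCGG, or CCGCCC on the other strand. The TATA box was searched as TATAAA, with TTTATA on the other strand. The CCAAT box has the letters of its name, or ATTGG on the other strand, and the E box (CACGTG) reads alike on both. The downstream promoter held CCGCCC 3 times, beginning at -52, -18 and -14, the latter pair overlapping, and a GC box stood in 35.7% of all 32851 RefSeq promoters of this length. The upstream promoter held TTTATA once, at -245, and a TATA box in either direction stood in 13.6% of all promoters. A CCAAT box (37.4% of all promoters) and an E box (7.15%) matched neither sequence. GC content was 45.7% upstream and 62.7% downstream, against a median of 52.7% for all promoters. These matches describe letters in the window only.

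The 6 detected members were not present in equal shares of cells. *Dtna* and *Utrn* had a read in most cells, *Dmd* in nearly all L4 cells but fewer L5 cells, and *Dag1*, *Dtnb* and *Sgce* in fewer. Of the 76 L4 cells, *Dmd* was read in 74, *Utrn* in 71, *Dtna* in 70, *Dtnb* in 50, *Dag1* in 42 and *Sgce* in 38. Of the 33 L5 cells, *Dtna* was read in 33, *Utrn* and *Sgce* in 26 each, *Dtnb* in 23, *Dmd* in 20 and *Dag1* in 19. The median number of members read in a cell was 5 for V1 L4, 4.5 for S1 L4, 4 for V1 L5 and 5 for S1 L5. All 6 were read together in 11 of 42 V1 L4, 5 of 34 S1 L4, 3 of 17 V1 L5 and 5 of 16 S1 L5 cells.

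**Figure D1:**
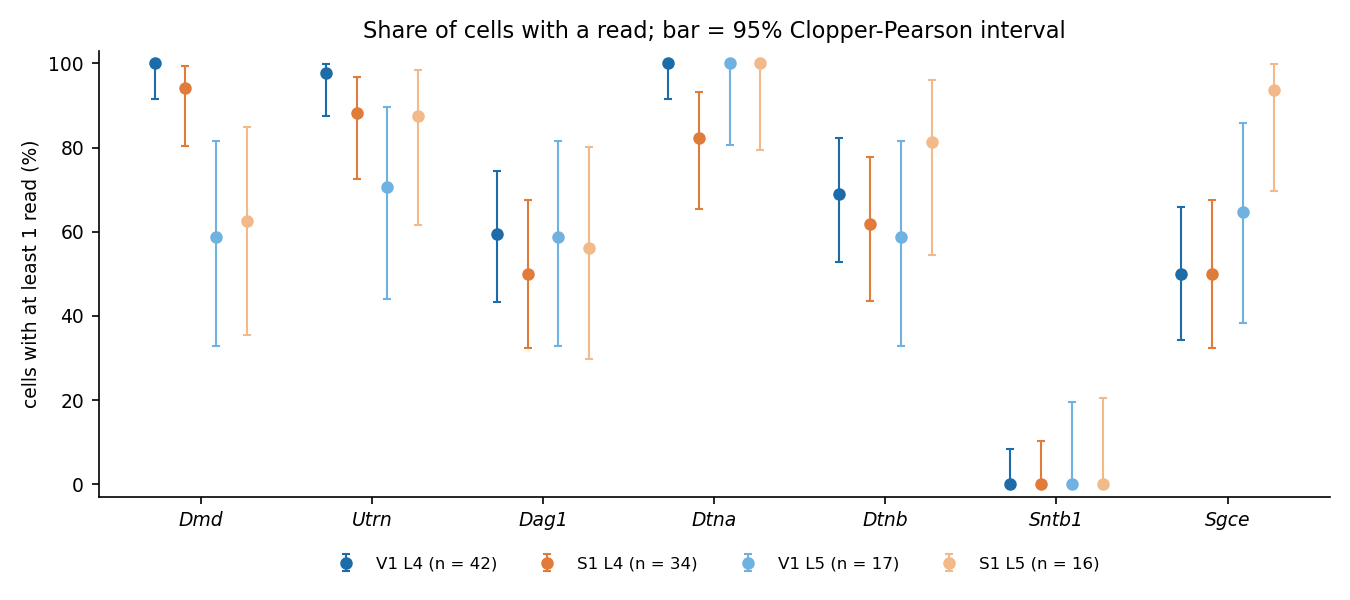
Share of cells with at least 1 read of each member (y axis, percent) in the 4 groups (colours), with 95% Clopper-Pearson intervals. These treat cells as independent draws and do not cover the spread between mice or days. *Dmd* was read in 42 of 42 V1 L4 and 32 of 34 S1 L4 cells but in 10 of 17 V1 L5 and 10 of 16 S1 L5 cells, *Sgce* was read in 15 of 16 S1 L5 cells, and *Sntb1* stayed at 0 throughout.

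*Sntb1*, a syntrophin that in muscle binds dystrophin and dystrobrevin, had 0 reads and 0 RPKM in every cell, those left out included. Over the 139840250 counts of the kept cells, a count of 0 allows a level of up to 0.0215 CPM, taking 3 counts as the limit and provided that the gene models used for counting could take up its reads, which the sources used here do not tell. Of all symbols, 26.6% had 0 counts in every kept cell. *Sntb1* lies at chr15:55636388-55906949, minus strand. No fold or difference was given for it.

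Compared per length, with the deposited RPKM values (reads scaled to transcript length and to depth), *Dtna* had the highest mean of the members in both layers. In the 76 L4 cells the means were 46.6 RPKM ± 57.8 (SD over cells) for *Dtna*, 28.5 ± 27.3 for *Dmd*, 22.4 ± 36.2 for *Dtnb*, 16.9 ± 16.1 for *Utrn*, 15.2 ± 25.5 for *Dag1* and 11.8 ± 25.4 for *Sgce*. In the 33 L5 cells the order was *Dtna* (34.3 ± 33.6 RPKM), *Sgce* (23.4 ± 32.8), *Dtnb* (18.3 ± 21.8), *Dag1* (8.86 ± 11.6), *Utrn* (7.48 ± 10.2) and *Dmd* (6.71 ± 11.9). *Dmd* thus stood second in L4 and last of the 6 in L5, and no neighbours in either order differed by more than their SD over cells. RPKM of *Dmd* was divided by a length 7.76 times that of *Sgce*, as the ratio of CPM to RPKM showed, so a read from a short form weighs as one of the long form.

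**Figure D2:**
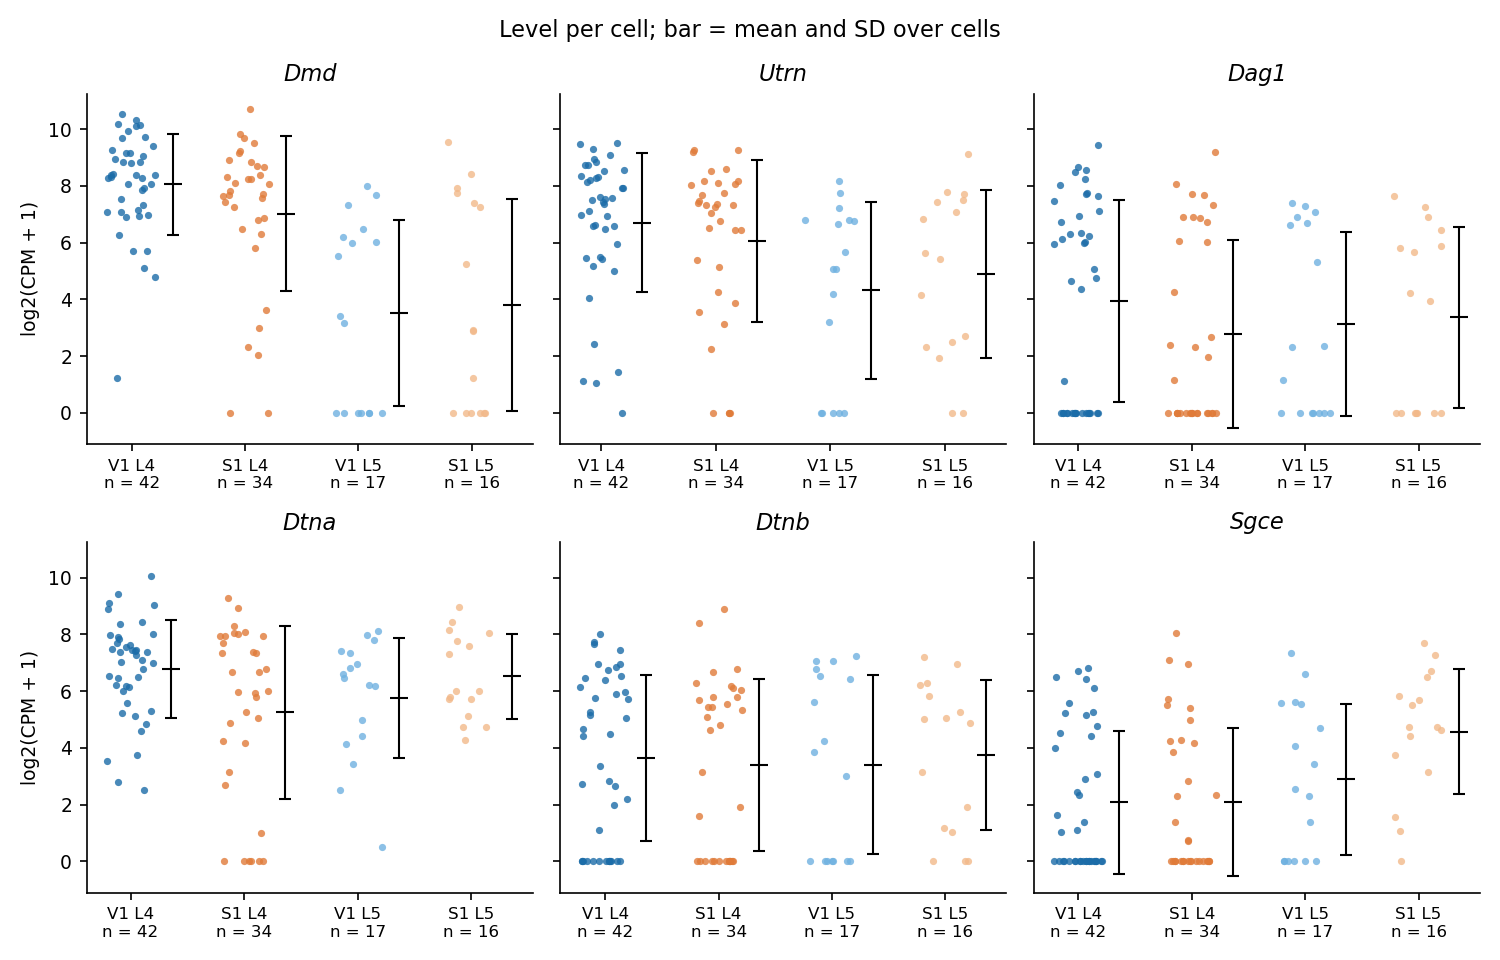
Level of the 6 detected members in every kept cell (y axis, log2(CPM + 1)) by group (x axis), with the mean and SD over cells beside the points. *Dmd* points of V1 L4 lie high and those of L5 split between 0 and middle levels, with L4 and L5 means of 7.60 and 3.65, while *Dag1*, *Dtnb* and *Sgce* have many cells at 0 in L4.

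*Dmd* was higher in L4 than in L5 of the first series, the difference by which it was chosen. In the 37 L4 cells its level ran from 51.2 CPM through a median of 275 to 1291 CPM, and in the 33 L5 cells from 0 through a median of 7.90 to 754 CPM. Every L4 cell had a read, and 20 of the 33 L5 cells lay below the lowest L4 cell, but 2 L5 cells lay above the L4 median, so the layers overlapped in part. The pooled level was 326 CPM (95% Poisson interval 321 to 331) in L4 and 93.2 CPM (90.1 to 96.3) in L5, a ratio of 3.50. These reads carry no molecular identifiers, so the intervals cover counting error only.

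On the log2(CPM + 1) scale the L5 minus L4 difference of the *Dmd* means was -4.34 (7.99 in L4 and 3.65 in L5), with an SD of 1.52 over 4 recording days, the lowest value of the 8921 genes with at least 32 counts in at least 10 of these cells. The median difference of those genes was 0.19. As a difference of mean logs, the *Dmd* value depends on the pseudocount and on the L5 cells at 0. It is larger than the pooled ratio of 3.50 would give. The difference of *Dmd* was -4.56 on day 3, -2.15 on day 4, -5.78 on day 5 and -3.96 on day 6, so all 4 days had the same sign, as did 14.2% of all genes. In the same order these days held 8, 4, 5 and 2 L4 cells and 8, 8, 9 and 8 L5 cells. Days 1 and 2, with 3 and 15 L4 cells, held no L5 cell. The *Dmd* difference was -4.56 in V1, the second lowest of 6696 genes, and -4.09 in S1, the fourth lowest of 6492. Astrocyte markers (7 genes) summed to 127.1 CPM in L4, with single cells from 0 to 4102 CPM, and to 40.98 CPM in L5, with cells from 0 to 1018 CPM, and no marker of the list was at 0 in either layer. The part of these cells in the *Dmd* difference was not tested beyond the next value. Without the 30 cells of the whole set that held 1000 CPM or more of astrocyte, endothelial and mural, microglial or oligodendrocyte markers, the *Dmd* difference was -4.26.

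**Figure D3:**
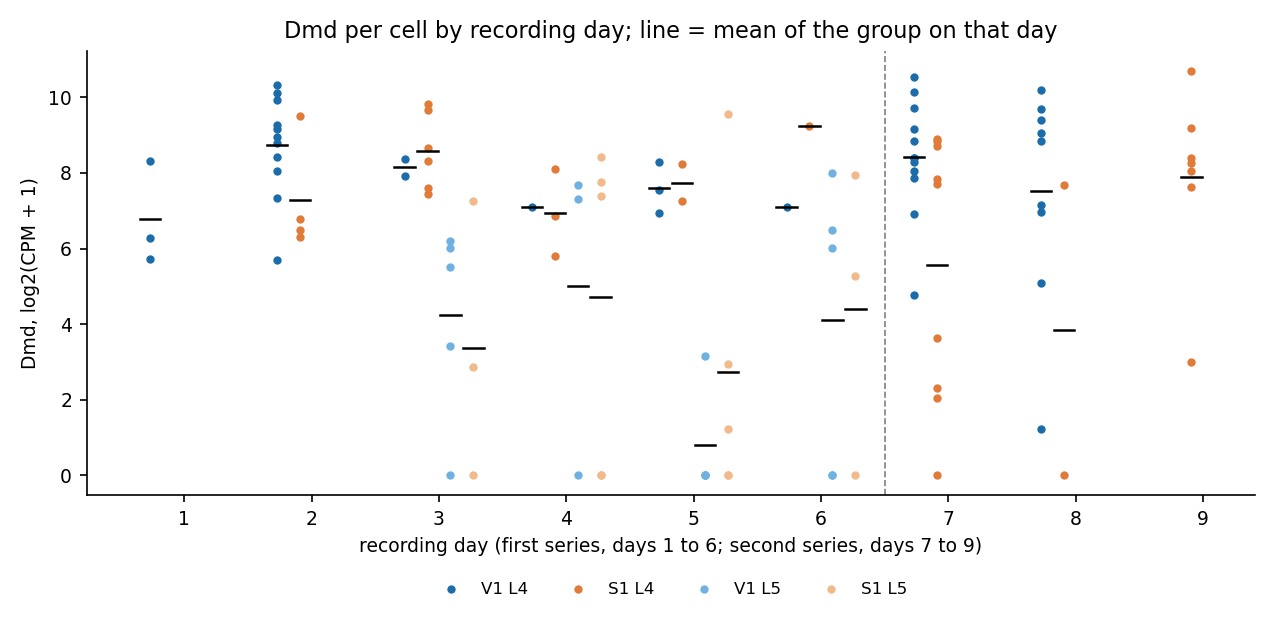
*Dmd* in each kept cell (y axis, log2(CPM + 1)) by recording day (x axis), coloured by group, with a line at the mean of each group on that day and a dashed line between the series. L5 cells with no *Dmd* read appear on each of days 3 to 6, and the L4 cells below 10 CPM all belong to days 7 to 9.

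In L5 the cells did not share 1 low level of *Dmd*. No read was found in 13 of 33 cells, while 9 cells had 100 CPM or more, a level also reached by 31 of 37 L4 cells of the same series. With each cell thinned to 250000 reads, 37 of 37 L4 cells and 20 of the 30 L5 cells deep enough kept a read. The L5 cell with the most *Dmd* reads gave 17.3% of those in L5. Across L5 cells the level of *Dmd* had a Pearson r of 0.37 with the log10 of the total count (n = 33), against -0.19 across L4 cells (n = 76), which are descriptions over cells that share days and areas.

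The second series, whose cells the layer contrast did not use, gave pooled L4 levels of the same order, with a lower mean log2 level in S1. A *Dmd* read was present in 37 of 39 cells (94.9%, exact 95% interval 82.7% to 99.4%), and the pooled level was 334 CPM (329 to 339), beside 326 CPM in the L4 cells of the first series. The interval of the share treats cells as independent draws and does not cover the spread between mice or days. The lowest cell was at 0, the median at 304 CPM and the highest at 1661 CPM. All 6 of the 76 L4 cells below 10 CPM were in this series, 5 in S1 and 1 in V1. By area, 21 of 21 V1 cells and 16 of 18 S1 cells had a read. The mean log2 level in V1 L4 was 8.08 in the first series and 8.04 in the second. In S1 L4 it was 7.88 and 6.27 (SD over cells 1.27 and 3.41), and 1 cell gave 23.4% of the second-series S1 counts.

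Between areas, *Dmd* in L4 was on average 1.03 lower in S1 than in V1 on the log2 scale, which was less than its SD of 1.81 over 5 recording days. V1 L4 cells ran from 1.34 CPM through a median of 325 to 1487 CPM and S1 L4 cells from 0 through 218 to 1661 CPM, and only 2 S1 cells lay below the lowest V1 cell, so the groups overlapped. The pooled level was 389 CPM (384 to 395) in V1 L4 and 265 CPM (260 to 270) in S1 L4. The daily differences were -1.46 and 0.44 on days 2 and 3, 0.14 on day 5, and -2.88 and -3.67 on days 7 and 8. The difference was -0.20 within the first series and -1.77 within the second, and -0.35 without day 7, on which 3 of the 9 S1 cells were below 10 CPM. In L5, *Dmd* was 0.27 higher in S1 (SD 1.21 over 4 days), with 76.6 CPM (72.8 to 80.6) in V1 and 109.6 CPM (105.02 to 114.4) in S1 and 2 days of each sign. Ordered by pooled level the groups were V1 L4, S1 L4, S1 L5 and V1 L5, and neither the first pair nor the last pair differed beyond the spread over days.

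**Figure D4:**
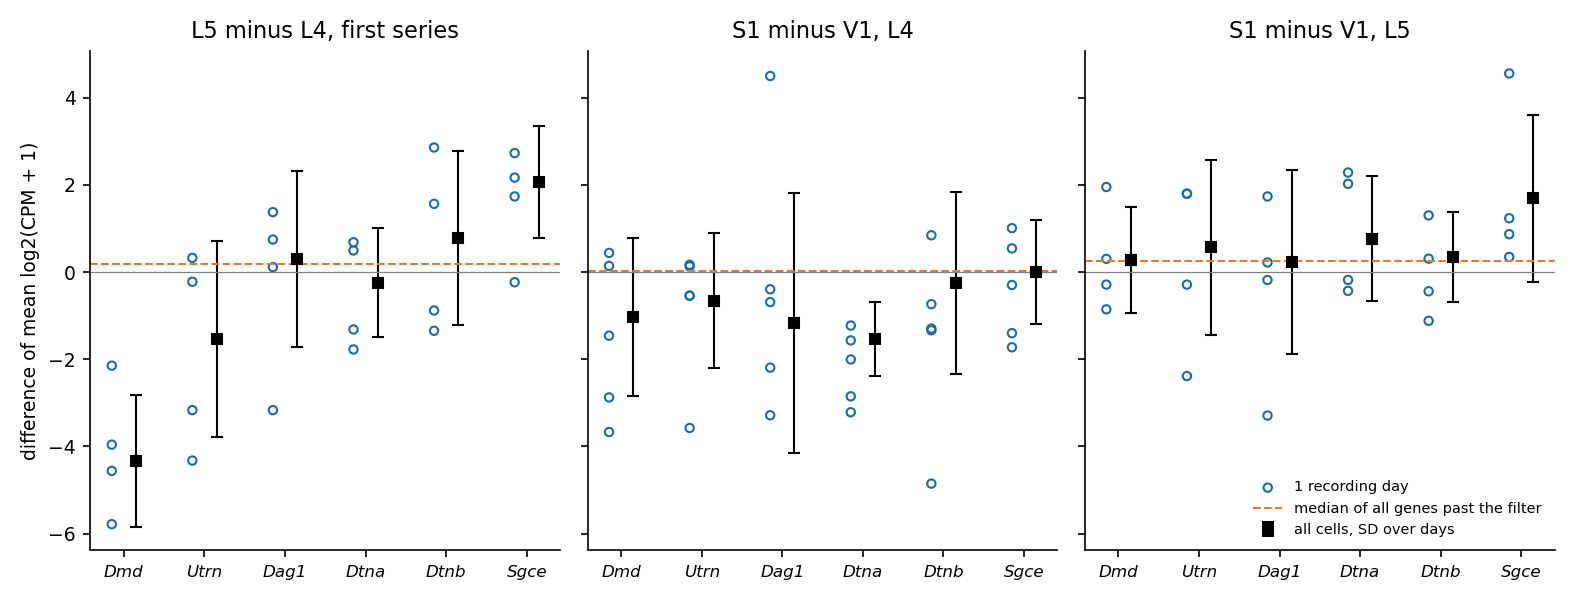
Difference of mean log2(CPM + 1) (y axis) for each detected member (x axis), L5 minus L4 in the first series, S1 minus V1 in L4, and S1 minus V1 in L5. Open circles are single recording days, squares with bars are all cells with the SD over days, and the dashed line is the median of all genes past the filter. *Dmd* is below 0 on all 4 days in the left panel and *Dtna* on all 5 days in the middle panel.

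Of the other members, *Utrn* was lower and *Sgce* higher in L5 of the first series, and only the *Sgce* difference exceeded its SD over days. Apart from *Dmd*, 5 members passed the filter. Of these, 1 was lower in L5 by at least 1 on the log2 scale, beside 6.66% of all genes, and 1 was higher by at least 1, beside 15.6% of all genes.

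*Utrn* (chr10:12382188-12869365, minus strand) ran from 0 through 108.5 to 729 CPM in L4 of the first series and from 0 through 42.3 to 562 CPM in L5. Both layers reached down to 0, and 12 of 33 L5 cells were above the L4 median. Its mean was 1.54 lower in L5 (SD 2.25 over 4 days), with 3 days negative and 1 positive. The daily values were -3.17 on day 3, 0.33 on day 4, -0.22 on day 5 and -4.32 on day 6. Between areas *Utrn* was 0.65 lower in S1 than in V1 in L4 (SD 1.55) and 0.57 higher in L5 (SD 2.0). The L4 value was 0.24 within the first series and -1.52 within the second.

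Dystrophin and utrophin were compared within cells on the per-length scale. *Dmd* was the higher of the pair in 27 of 37 L4 cells of the first series and in 14 of 33 L5 cells, in which *Utrn* was higher in 15 and both were at 0 in 4. The ratio of their mean RPKM was 1.78 in L4 and 0.897 in L5 of that series, 1.74 in all V1 L4 cells and 1.60 in all S1 L4 cells. In L5, 9 cells had *Utrn* reads with no *Dmd* read and 3 the reverse. Across the 76 L4 cells the pair had a Pearson r of 0.24 and across the 33 L5 cells 0.11.

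**Figure D5:**
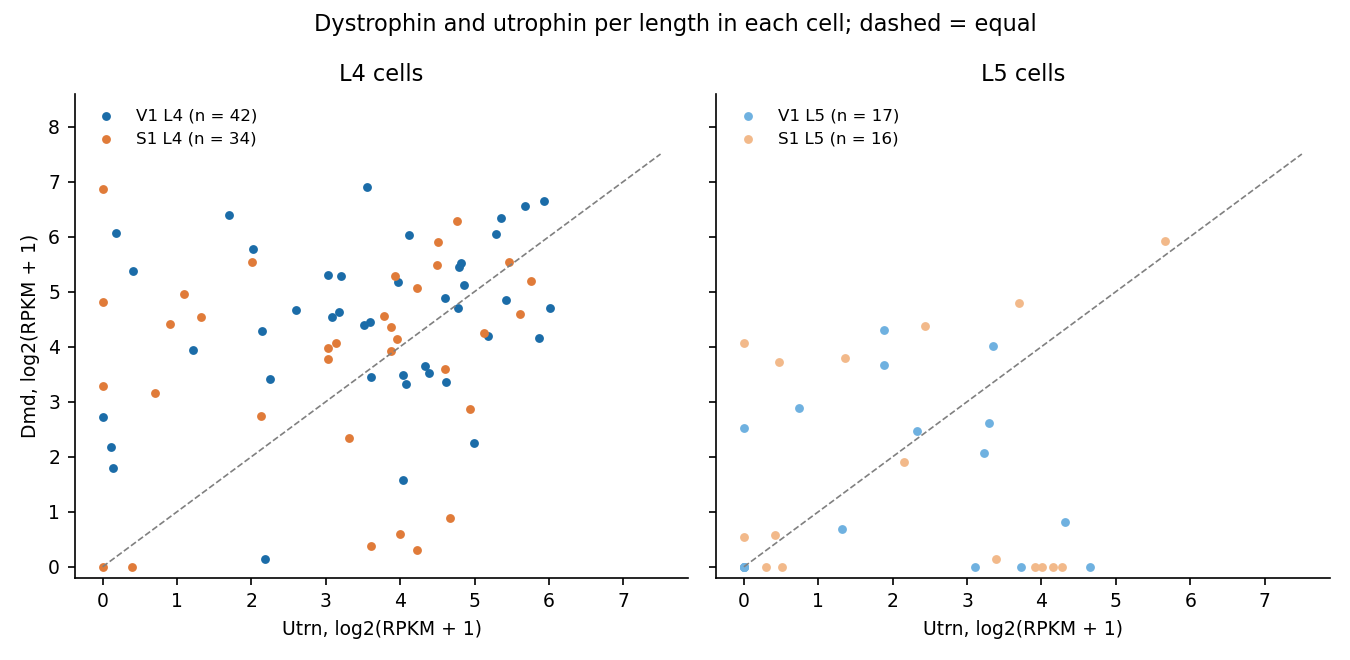
*Dmd* (y axis) against *Utrn* (x axis), both as log2(RPKM + 1), 1 point per cell, L4 on the left and L5 on the right, coloured by area, with a dashed line at equal levels. Most L4 points lie above the line, and L5 holds a row of cells with *Utrn* but no *Dmd*.

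*Sgce* (chr6:4674350-4747207, minus strand), an imprinted gene mutated in myoclonus dystonia, ran from 0 through a median of 0 to 85.7 CPM in L4 of the first series and from 0 through 20.2 to 206 CPM in L5. A read was present in 17 of 37 L4 cells and in 26 of 33 L5 cells. Since the L4 median was 0, the same 26 L5 cells were those above it. Its mean was 2.06 higher in L5 (SD 1.29) and higher on 3 of 4 days. The pooled level was 9.02 CPM (8.17 to 9.94) in L4 and 34.5 CPM (32.6 to 36.4) in L5, a ratio of 3.82. The L4 cells of the second series, however, had 30.7 CPM (29.2 to 32.2) with a read in 21 of 39 cells. Their median of 1.05 CPM and mean log2 level of 2.49 lay below the 20.2 CPM and 3.71 of L5. In L5 *Sgce* was 1.69 higher in S1 than in V1 (SD 1.91), on all 4 days, and 0.73 higher without day 6. In L4 the area difference was below 0.01 in size.

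*Dag1* (chr9:108204634-108263958, minus strand), whose single product is cut into the outer and the membrane-spanning dystroglycan subunits, ran from 0 through 0 to 403 CPM in L4 of the first series and from 0 through 4.16 to 201 CPM in L5. Its layer difference was 0.31 (SD 2.02). By area it was -0.86 in V1 and 1.81 in S1. In L4 *Dag1* was 1.17 lower in S1 (SD 2.98), at -2.44 within the first series and -0.04 within the second. In L5 it was 0.24 higher in S1 (SD 2.11). Across L5 cells its level had a Pearson r of 0.68 with the log10 of the total count (n = 33) and across L4 cells 0.23 (n = 76).

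*Dtna* (chr18:23415135-23659715, plus strand) was the only member whose L4 area difference had 1 sign on all 5 days. V1 L4 cells ran from 4.69 CPM through a median of 144.1 to 1077 CPM, all 42 with a read, and S1 L4 cells from 0 through 62.2 to 616 CPM, with a read in 28 of 34. 7 S1 cells lay below the lowest V1 cell. The mean was 1.54 lower in S1 (SD 0.84), from -3.22 to -1.23 by day, -1.37 within the first series and -1.66 within the second. Of the 9201 genes past the filter, 6.62% had 1 sign on all 5 days. Oligodendrocyte markers (6 genes) were also unequal, at 267 CPM pooled in V1 L4 (cells from 0 to 3717 CPM, *Mag* at 0) and 1115 CPM in S1 L4 (cells from 0 to 9702 CPM), and astrocyte markers were at 130 and 69.8 CPM. Without cells holding 1000 CPM or more of a non-neuronal marker list, which removed 8 V1 and 13 S1 L4 cells, the *Dtna* difference was -0.74. In L5 all 33 cells had a *Dtna* read, the area difference was 0.77 (SD 1.43), and the layer difference in the first series was -0.24 (SD 1.25). 1 annotated gene on the opposite strand overlaps *Dtna* exons, and whether the counting used strand was not given in the sources used here.

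*Dtnb* (chr12:3572381-3781796, plus strand), the beta dystrobrevin found in neurons, differed between layers by 0.78 (SD 2.0), between areas of L4 by -0.25 (SD 2.09) and between areas of L5 by 0.35 (SD 1.04), each within the spread over days. It ran from 0 through 2.96 to 255 CPM in L4 of the first series and from 0 through 17.9 to 150.6 CPM in L5. Per length *Dtna* was the higher dystrobrevin in 29 of 42 V1 L4, 21 of 34 S1 L4, 11 of 17 V1 L5 and 12 of 16 S1 L5 cells. These counts rest on a *Dtna* length that differed between cells in the deposited RPKM.

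Over all members, 3 of the 6 past the filter were lower in S1 L4 than in V1 L4 by at least 1 (*Dtna*, *Dag1* and *Dmd*), beside 7.66% of the 9201 genes, and 0 were higher by at least 1, beside 8.12%. None of these 3 passed that size with a pseudocount of 10 (-0.90, -0.71 and -0.76 in the same order), only *Dtna* did on log2(RPKM + 1) (-1.02), and only *Dag1* did among cells with at least 4000 genes (-1.28). In L5, 0 were lower in S1 by at least 1, beside 10% of 6402 genes, and 1 was higher (*Sgce*), beside 23.6%. The median of all genes was 0.01 in the L4 and 0.24 in the L5 area comparison.

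Other genes of the pathway were taken from a list of 75, of which 74 were matched and 47 passed the filter in the layer comparison. By at least 1 on the log2 scale, 7 of the 47 (14.9%) were lower in L5, beside 6.66% of all genes, and 4 (8.51%) higher, beside 15.6%, with a median of -0.23 beside 0.19 for all genes. The 3 genes lower by that size with 1 sign on all 4 days were *Large*, which adds the laminin-binding sugar chain to dystroglycan (3.50 in L4 and 1.92 in L5, difference -1.57, SD 1.31), *Ank2*, an ankyrin that ties membrane proteins to spectrin (7.31 and 6.04, -1.27, SD 0.87), and *Sntg1*, a neuronal syntrophin (6.42 and 5.37, -1.04, SD 1.07). A common sign on all 4 days was present in 14.2% of all genes. The differences of *Large* and *Ank2* exceeded their SD over days and that of *Sntg1* did not.

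Within the list, 14 of 18 genes for glycosylation of dystroglycan passed the filter, 2 lower and 2 higher in L5 by at least 1. Of 16 extracellular partners 8 passed, with 2 lower and 0 higher, and of 15 membrane and scaffold partners 8 passed, with 2 lower and 0 higher. Of 15 genes of the inhibitory postsynapse 13 passed, with 0 lower and 2 higher. These counts are small and stand beside 6.66% of all genes lower and 15.6% higher in L5 by at least 1. The share higher was 14.3% in the glycosylation list and 15.4% in the inhibitory list, close to that of all genes. *Sgcb* was the only listed sarcoglycan past it (-0.27, SD 2.4). In the area comparison of L4, 2 of 47 listed genes (4.26%) were lower in S1, beside 7.66% of all genes, and 6 (12.8%) higher, beside 8.12%. In that of L5, 1 of 33 (3.03%) was lower, beside 10%, and 11 (33.3%) higher, beside 23.6%.

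The genes whose level across the 76 L4 cells was most like that of *Dmd*, of 9200 compared, were *Atp2b1*, a plasma membrane calcium pump (Pearson r = 0.58), *Nrxn3*, a presynaptic neurexin (0.55), *Meg3*, a long noncoding RNA (0.48), *Srrm2*, a splicing factor (0.48), and *A330076H08Rik* (0.48). Across the 33 L5 cells their r with *Dmd* was 0.49, 0.25, 0.16, 0.14 and 0.15. *Atp2b1* itself was at 8.96 in L4 and 6.52 in L5 of the first series on the log2 scale. Among the members, the r with *Dmd* in L4 ran from -0.20 for *Dag1* to 0.24 for *Utrn*, and the median over all genes was -0.05. The cells share days and areas and differ in depth, so these values describe the cells only.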

How the data were processed

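The count and RPKM tables of 118 cells were used. Per the labels and the study's methods, the authors aligned single-end reads to mm10 with STAR 2.4.2a after bcl2fastq 2.20 and deposited whole-number read counts per gene, without molecular identifiers. The deposited RPKM values were made by the authors with rpkmforgenes and RefSeq models, and served only to compare genes per length. The gene models behind the counts are not given in the sources used here. Entries of 1 symbol were summed. Counts were divided by the total of each cell (CPM), and differences are of mean log2(CPM + 1), a scale that understates differences of low genes. Genes were compared where at least 32 counts stood in at least 10 cells. Since no animal is named, no test was run on cells. The members, lists and named genes were chosen with earlier results of these data known: all members, listed genes past 1 on the log2 scale with 1 sign on every day (up to 4 each way), and the 5 genes most like *Dmd*. Some listed genes are not reported here. The steps were checked on simulated data. Alternatives covered pseudocount, scaling (edgeR 4.0.16 TMM), thinning, cell filters and recording days. Promoters are from RefSeq, GRCm38.p6, with 4 of 7 members found, and coordinates from GENCODE M21 on the same assembly. Versions were Python 3.11.15 and pandas 2.3.3.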

Additional observations from a re-analysis of the deposited data

Results flagged for a closer look

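The layer difference of *Dag1* had opposite signs in the areas. In V1 it was -0.86 on the log2 scale and negative on both days with at least 2 cells of each layer, -1.80 on day 3 and -1.12 on day 5. In S1 it was 1.81 and positive on all 3 such days, at 1.71, 1.17 and 1.30. In the first series, 5 of 16 S1 L4 cells had a *Dag1* read, with 72.0% of the counts from 1 cell. Their mean was 1.55 on the log2 scale. The S1 L4 cells of the second series, 12 of 18 with a read, had a mean of 3.86, above the 3.36 of S1 L5. In V1 the L4 mean of the second series was 3.90, above the 3.13 of V1 L5. The difference between the areas was not tested.

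The 4 S1 L4 cells without an *Sst* read, left out of the comparisons in the values reported, held reads of 6 members. Pooled over these cells the level was 67.5 CPM for *Dmd*, 84.1 CPM for *Utrn*, 55.9 CPM for *Dag1*, 134.9 CPM for *Dtna*, 35.8 CPM for *Dtnb* and 19.4 CPM for *Sgce*, each above the 0.545 CPM that a count of 0 allows there. *Dmd* was read in 2 of these 4 cells, at 179 and 265 CPM, and *Sgce* in 1. *Sntb1* had 0 reads there too.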

How the results depend on the processing

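Of 341 recomputed values, 336 stayed within 1 SD over days of the value reported (counts within 1.5 times, the share within its interval), and 5 moved. For many differences that SD is larger than the difference itself, so values of the other sign are among the 336. The layer difference of *Dmd* was -2.59 on log2(RPKM + 1), -2.86 with a pseudocount of 10 and -5.69 with 0.1, and ran from -5.69 to -2.59 over all settings. With one recording day left out at a time it ran from -4.84 to -3.73, as a mean of the differences within days it was -4.11, and with the cells lacking an *Sst* read it was -3.94. On log2(RPKM + 1), 1 member instead of 2, *Dmd* counted, was lower in L5 by at least 1. The other 3 that moved were medians over cells, 2.37 for the *Dag1* and 4.41 for the *Sgce* layer difference and -4.33 for *Dag1* between areas in L4. The L4 area difference of *Dmd* kept its sign in 22 of 22 recomputations, from -1.77 to -0.20. In L5 it was -0.51 with medians, -0.09 without day 5 and -0.49 without cells holding 1000 CPM or more of a non-neuronal marker list, a filter chosen after seeing the data. The other sign under at least 1 setting was also found for the L5 area differences of *Utrn*, *Dag1*, *Dtna* and *Dtnb*, the L4 area differences of *Dtnb* and *Sgce*, and the layer differences of *Dag1* and *Dtna*. Shallow cells limit shares: 30 of 33 L5 cells reached 250000 reads.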
